A study of Mus musculus with 8 samples.

Results

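Macrophages and related myeloid cells in brown adipose tissue (BAT) were followed here through 39 genes that such cells express, taken by symbol from the 49452 genes of a table of BAT gene expression. All 39 were found. They were grouped by role into general leukocyte and myeloid signalling genes, macrophage identity genes, lipid-associated genes (Trem2, Gpnmb, Itgax and Mmp12), further lipid-handling genes, resident-type genes (Mrc1, Cd163 and Folr2), complement, Fc receptors, pattern recognition receptors, lysosomal enzymes, chemokine receptors and Retnla.

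The study asked which transcripts follow BAT activity, and sequenced RNA of whole BAT from 8 male C57BL/6 mice in 4 groups of 2. For the cold experiment, mice of 10 to 12 weeks were kept at 22 °C (replicates 4 and 7) or at 4 °C for 24 h (replicates 2 and 11). For the diet experiment, mice of 32 weeks had received a control diet (CD, replicates 6 and 8, called normal chow in the labels) or a high-fat diet (HFD, replicates 2 and 6) for 28 weeks. By the study's methods the cold exposure ended with a fast, and a fast of the 22 °C mice is neither stated nor denied. No group carries a transgene or a deletion. Age differs between the experiments, so a difference between a mouse of one and a mouse of the other cannot be told apart from age.

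Macrophages arise from embryonic precursors or from blood monocytes and live on the growth factor CSF1. In adipose tissue they clear dying cells, take up lipid and surround vessels and nerves. In obese fat, macrophages that engulf lipid carry the lipid-sensing receptor TREM2 and make lysosomal and matrix-degrading proteins, whereas cells of the resident and perivascular kind carry the mannose receptor (Mrc1), the haemoglobin scavenger receptor (Cd163) and a folate receptor (Folr2).

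The labelled tissue was checked against its defining markers, which were present. All 12 listed brown adipocyte genes were measured, among them Ucp1, the uncoupling protein of brown fat, at 699 to 6462 FPKM (fragment counts scaled to transcript length and to the library's mapped fragments). Summed over the 12 genes, brown adipocyte markers stood at 7711 and 8175 FPKM at 22 °C, 18723 and 16160 at 4 °C, 16372 and 9154 in CD and 9808 and 14146 in HFD. In every pair of values given for a group, the lower replicate number comes first. Whole tissue was sequenced, so fewer cells of a type and less RNA per cell cannot be told apart.

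Promoters of the 7 genes whose balance was compared are shown because these genes define the lipid-associated and the resident-type groups. Each is the 250 bases before a RefSeq transcription start (assembly GRCm38.p6, written in the direction of the gene), and for Mmp12 and Folr2, which have a second start, only the start listed first is shown. Capitals mark, on either strand, AGGAAGT (bound by PU.1, the product of Spi1 and the master regulator of myeloid cells), TGACTCA (bound by AP-1) and CATGTG (an E-box variant of MITF, a regulator of lysosomal genes). The windows are chr17:48346151-48346400 (+ strand) for Trem2, chr6:49036268-49036517 (+ strand) for Gpnmb, chr7:128129300-128129549 (+ strand) for Itgax, chr9:7344147-7344396 (+ strand) for Mmp12, chr2:14229164-14229413 (+ strand) for Mrc1, chr6:124304401-124304650 (+ strand) for Cd163 and chr7:101857191-101857440 (- strand) for Folr2.
Trem2: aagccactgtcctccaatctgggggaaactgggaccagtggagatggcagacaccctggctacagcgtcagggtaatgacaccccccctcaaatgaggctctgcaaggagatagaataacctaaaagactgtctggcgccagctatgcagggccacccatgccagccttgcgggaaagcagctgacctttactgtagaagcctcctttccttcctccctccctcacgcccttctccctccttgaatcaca
Gpnmb: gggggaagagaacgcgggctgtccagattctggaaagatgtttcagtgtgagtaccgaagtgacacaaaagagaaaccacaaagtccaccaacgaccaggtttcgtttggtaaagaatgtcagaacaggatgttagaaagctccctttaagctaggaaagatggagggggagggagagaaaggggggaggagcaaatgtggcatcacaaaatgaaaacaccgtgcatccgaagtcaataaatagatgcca
Itgax: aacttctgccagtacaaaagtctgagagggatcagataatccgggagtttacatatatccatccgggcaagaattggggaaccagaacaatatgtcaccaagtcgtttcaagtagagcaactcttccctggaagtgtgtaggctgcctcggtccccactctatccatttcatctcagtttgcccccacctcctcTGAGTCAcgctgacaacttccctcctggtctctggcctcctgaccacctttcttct
Mmp12: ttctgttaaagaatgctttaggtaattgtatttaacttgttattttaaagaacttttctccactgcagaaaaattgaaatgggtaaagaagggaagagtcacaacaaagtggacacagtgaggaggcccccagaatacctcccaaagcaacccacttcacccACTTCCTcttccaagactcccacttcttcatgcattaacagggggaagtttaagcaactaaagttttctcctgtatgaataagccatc
Mrc1: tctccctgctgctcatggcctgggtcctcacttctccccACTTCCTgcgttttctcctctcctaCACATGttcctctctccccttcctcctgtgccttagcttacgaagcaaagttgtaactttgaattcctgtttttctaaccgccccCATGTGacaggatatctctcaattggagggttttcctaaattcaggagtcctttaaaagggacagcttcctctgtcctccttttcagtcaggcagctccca
Cd163: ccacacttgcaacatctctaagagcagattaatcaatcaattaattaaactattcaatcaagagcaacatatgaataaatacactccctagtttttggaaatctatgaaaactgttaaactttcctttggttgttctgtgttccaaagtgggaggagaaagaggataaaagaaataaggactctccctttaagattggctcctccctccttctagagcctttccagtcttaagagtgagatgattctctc
Folr2: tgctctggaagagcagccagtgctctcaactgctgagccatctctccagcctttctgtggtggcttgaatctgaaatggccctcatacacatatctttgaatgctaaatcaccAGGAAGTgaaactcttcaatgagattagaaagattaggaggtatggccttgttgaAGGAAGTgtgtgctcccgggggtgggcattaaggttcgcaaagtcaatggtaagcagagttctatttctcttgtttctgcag

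Of the 39 genes, 30 had a promoter in the RefSeq table. AGGAAGT occurred in the promoters of 11 of these 30 genes (36.7%), against 7.69% of all 32851 promoters of that length. It lies in those of Mmp12, Mrc1 and Folr2 above, and in those of Ptprc, Spp1, Retnla, C1qb, C1qc, Fcgr1, Lyz1 and Lyz2. TGACTCA occurred in 5 of 30 (16.7%, against 4.46% of all), including Itgax above, and CATGTG in 6 of 30 (20%, against 12.3%), including Mrc1 above. The E-box CACGTG, bound by TFE factors of lysosomal genes, was in 0 of 30 and in 6.02% of all promoters. The motifs were chosen after these promoters had been looked at, a gene with several starts counted once if any start held the letters, and a match describes letters and not a bound site. None of the 4 motifs stood in the windows of Trem2, Gpnmb and Cd163.

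The myeloid genes spanned a wide range of levels. Lyz2, the lysozyme of macrophages and the most abundant of the 39 at 22 °C, stood at 44.7 and 31.6 FPKM there and at 119 and 181 FPKM in HFD, whereas the scavenger receptor Marco never exceeded 0.118 FPKM and was listed at 0 in CD replicate 8. In HFD, 37 genes were at 1 FPKM or more in both libraries, against 19 in CD, 22 at 22 °C and 21 at 4 °C. Marco and Cx3cr1, a chemokine receptor of resident and patrolling cells at 0.0572 to 0.317 FPKM, were below 1 FPKM in every library. The gene model of Cx3cr1 overlaps 9 other genes, so its reads cannot be assigned with certainty. The sum over all 39 genes was 195 and 148 FPKM at 22 °C, 285 and 148 at 4 °C, 354 and 99.0 in CD and 661 and 876 in HFD. Both HFD libraries thus lay above every other library, and the 2 CD libraries lay farther apart than those of any other group in ratio.

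Level by level, the HFD libraries were the 2 highest of all 8 for 28 of the 39 genes. CD replicate 6 was the third behind both of them for 20 genes, and for 4 more (Mpeg1, Clec4n, Ccr2 and Cx3cr1) it stood between the 2 HFD libraries. CD replicate 8 was the lowest library for 21. For these orders over 8 libraries no share of all genes was taken, so the counts describe the 39 genes alone. CD replicate 6 was above CD replicate 8 in 35 of 39 genes, and 4 °C replicate 2 was above 4 °C replicate 11 in 35 of 39. Beside each other, 18 of 38 tested genes were at least 2-fold higher in CD replicate 6 than in CD replicate 8, against 5.91% of all genes tested. At 4 °C, 3 of 37 were at least 2-fold higher in replicate 2 than in replicate 11, against 2.36% of all genes. This spread within CD enters every comparison with HFD, and it is widest for Lgals3, at 22.0-fold between the 2 CD libraries.

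**Figure D1:**
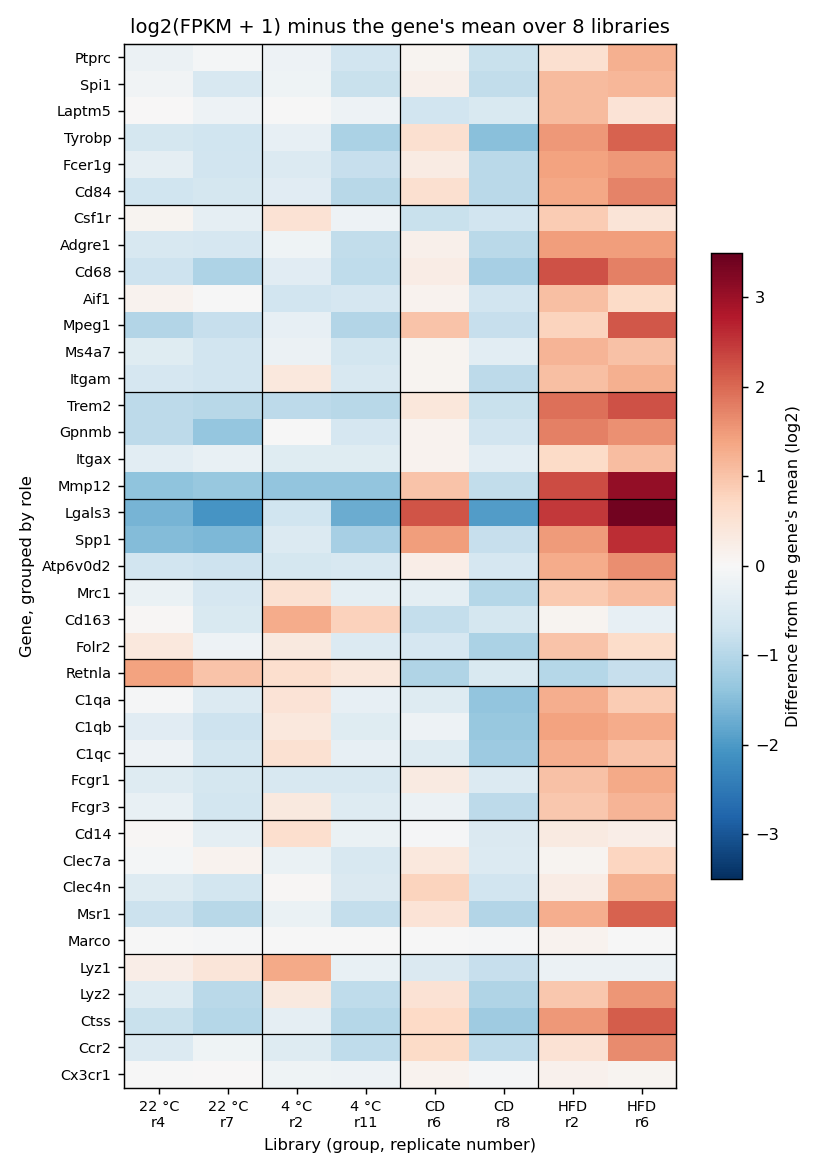
Heat map of the 39 genes (rows, grouped by role) in the 8 libraries (columns, group and replicate number), coloured by log2(FPKM + 1) minus the gene's mean over the 8 libraries. The HFD columns are red for most genes, CD replicate 6 is red for Lgals3, Spp1, Mmp12 and Mpeg1 while CD replicate 8 is blue, and Retnla is highest in the 22 °C and 4 °C columns.

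HFD was compared with CD to ask how diet-induced obesity alters BAT transcripts. Of 38 myeloid genes tested, 37 had a positive and 1 a negative difference, and the median difference was 1.60 on the log2(FPKM + 1) scale, against 0.18 over all genes. Both HFD libraries lay above both CD libraries for 32 of 38 genes, whereas 39.9% of all genes did so, and 0 of 38 lay below in both, against 5.80% of all genes. At least 2-fold higher on the fitted scale were 31 of 38, against 3.46% of all genes. Without CD replicate 8 this count was 20 of 38 (2.45% of all genes) and the median difference 1.04. Despite these sizes, 0 of 38 passed the threshold (limma with Benjamini-Hochberg adjustment over 17543 genes, adjusted p under 0.05 with a 2-fold limit), which 0.0684% of all genes (12) passed. The lowest adjusted p among the 38 was 0.138, and 30 had an unadjusted p under 0.05, against 14.4% of all genes.

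How many passed differed between fits. One library of each group held much RNA of the satellite repeat gene Gm10800 (above 100 FPKM in replicate 4 at 22 °C, replicate 11 at 4 °C, HFD replicate 2 and CD replicate 8), and with this library type as a covariate 31 of 38 myeloid genes were called, all higher in HFD, against 4.25% of all genes. The 7 tested genes that were not called then were Cd163, Retnla, Cd14, Clec7a, Clec4n, Lyz1 and Cx3cr1. This fit estimates library type besides both group means from 4 libraries, so little is left to measure a gene's spread. Library type also takes up a gap between replicates that has the same direction in CD and HFD. Its calls and p-values are limited by both. Leaving out CD replicate 6 gave 31 calls (4.22% of all genes), leaving out CD replicate 8 gave 4 (1.35%), leaving out HFD replicate 2 gave 14 (2.08%) and leaving out HFD replicate 6 gave 4 (0.584%). Trem2 and Mmp12 were called in each of these 4 fits, in which the lone library of a group is assumed to vary like the other group. Without CD replicate 8 the fitted difference was smaller by over 1.5 times, or reversed, for 20 of 38 genes, and without CD replicate 6 it was larger by over 1.5 times for 9. CD replicate 6 also differs from the other diet libraries by the run prefix in its label, whose meaning is not stated, so the fit without it is the comparison within one prefix. Within library types, where no test is possible, 37 of 38 differences were positive in both. The medians were 1.94 in satellite-high and 1.18 in satellite-low libraries, against 0.18 and 0.17 over all genes.

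**Figure D2:**
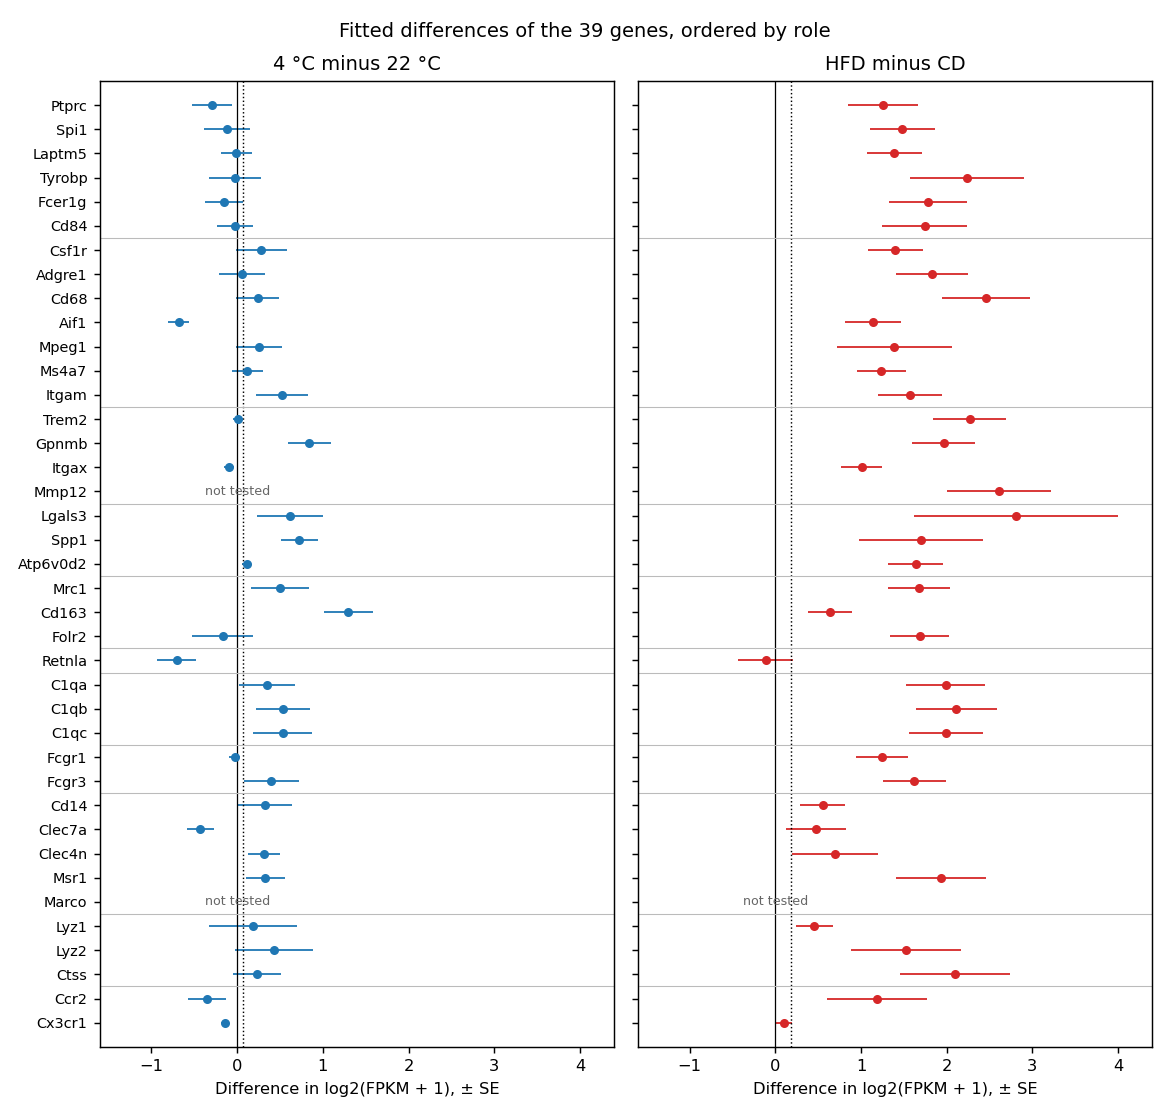
Fitted difference in log2(FPKM + 1) with its limma standard error (horizontal bars) for each of the 39 genes, ordered by role, for 4 °C minus 22 °C (blue) and HFD minus CD (red), each from 2 libraries against 2. Dotted lines mark the median of all genes tested, 0.07 and 0.18. Most red points lie between 1 and 3, most blue points lie within 0.6 of 0, and Mmp12 (cold) and Marco (both) were below the filter.

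The lipid-associated genes were higher in both HFD than in both CD libraries, without exception among the 4, as were 39.9% of all genes. Positions are those of GRCm38. Trem2 (chr17:48346401-48354147), the lipid-sensing receptor, was at 0.177 and 0.133 FPKM at 22 °C, at 0.193 and 0.136 at 4 °C, at 1.95 and 0.296 in CD and at 7.43 and 9.53 in HFD. The HFD mean was 7.55 times the CD mean (4.35 times CD replicate 6 and 28.6 times CD replicate 8), and the fitted log2 difference was 2.27 (SE 0.42, limma adjusted p = 0.139). CD replicate 6 lay between the HFD libraries and the 5 others, where Trem2 stayed under 0.3 FPKM. Gpnmb (chr6:49036546-49070929), a glycoprotein of lysosomes and of phagocytes filled with lipid, was at 0.835 and 0.359 FPKM at 22 °C, at 2.44 and 1.32 at 4 °C, at 2.79 and 1.15 in CD and at 10.8 and 9.54 in HFD. The difference of HFD from CD was 1.96 (SE 0.36, limma adjusted p = 0.138), the lowest adjusted p of the 39 genes in this comparison.

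Itgax (chr7:128129547-128150657), which encodes the integrin CD11c, was the least abundant of the 4 in HFD. It was at 0.167 and 0.258 FPKM at 22 °C, at 0.135 in both 4 °C libraries, at 0.640 and 0.164 in CD and at 1.43 and 2.18 in HFD. The diet difference of Itgax was 1.01 (SE 0.24, limma adjusted p = 0.163). Mmp12 (chr9:7344381-7369499), the macrophage elastase, was at 0.0345 and 0.0843 FPKM at 22 °C, at 0.0457 and 0.0555 at 4 °C, at 4.41 and 0.495 in CD and at 12.2 and 21.9 in HFD. This span covered the widest range relative to its lowest value in the lipid-associated group, with about 17.7 to 43.9 fragments in the cold experiment and about 202 to 8624 in the diet experiment (by longest transcript). The diet difference of Mmp12 was 2.61 (SE 0.61, limma adjusted p = 0.163), and 1.69 without CD replicate 8. A gene on the other strand overlaps Mmp12, and whether counting used the strand is not stated. Such an overlap was found for 4 members, the others being Folr2, Csf1r and Cx3cr1.

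With library type as a covariate, the 4 lipid-associated genes passed, with limma adjusted p-values of 0.00494 for Trem2, 0.0073 for Gpnmb, 0.00608 for Itgax and 0.00494 for Mmp12. The limits of that fit, given above, hold for these p-values.

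**Figure D3:**
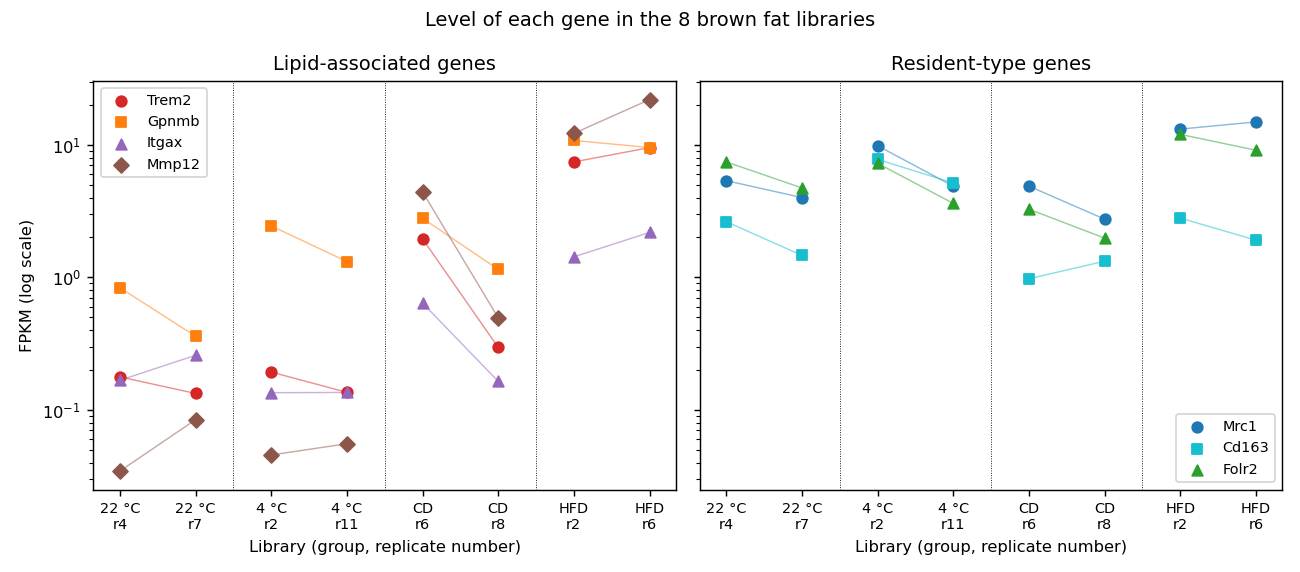
FPKM of the 4 lipid-associated genes (left) and the 3 resident-type genes (right) in each of the 8 libraries on a log scale, with lines joining the 2 libraries of a group. Trem2, Itgax and Mmp12 stay below 0.3 FPKM in the cold experiment and reach 1.43 to 21.9 FPKM in HFD, and Mrc1 and Folr2 are at 9.10 to 14.9 FPKM in HFD, whereas Cd163 is highest at 4 °C.

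The resident-type genes did not follow one pattern. Mrc1 (chr2:14229392-14332057), the mannose receptor CD206, was at 5.36 and 4.00 FPKM at 22 °C, at 9.84 and 4.87 at 4 °C, at 4.88 and 2.75 in CD and at 13.1 and 14.9 in HFD. Its diet difference was 1.68 (SE 0.36, limma adjusted p = 0.151). Folr2 (chr7:101839988-101857194), the folate receptor beta, was at 7.43 and 4.73 FPKM at 22 °C, at 7.25 and 3.61 at 4 °C, at 3.27 and 1.98 in CD and at 11.99 and 9.10 in HFD. The diet difference of Folr2 was 1.68 (SE 0.34, limma adjusted p = 0.149). Both genes thus had their 2 highest values in HFD and their lowest in CD replicate 8.

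Cd163 (chr6:124304656-124330527) differed from them. It was at 2.63 and 1.46 FPKM at 22 °C, at 7.76 and 5.15 at 4 °C, at 0.975 and 1.32 in CD and at 2.80 and 1.91 in HFD. The 4 °C libraries were the 2 highest of the 8, and the HFD libraries overlapped those at 22 °C. Both HFD values lay above both CD values, and the diet difference was 0.63 (SE 0.26, limma adjusted p = 0.326). After median centring the diet groups of Cd163 overlapped, with a difference of 0.28, and after quantile normalization it was 0.35. With library type as a covariate, Mrc1 (limma adjusted p = 0.00587) and Folr2 (limma adjusted p = 0.00892) passed, and Cd163 had an adjusted p of 0.0282 with a difference below the 2-fold limit.

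The balance of the 2 kinds was taken as the mean log2(FPKM + 1) of the 4 lipid-associated genes minus that of the 3 resident-type genes. This balance came to -2.19 and -1.78 at 22 °C, -2.63 and -2.05 at 4 °C, -0.22 and -0.996 in CD and -0.24 and 0.29 in HFD. CD replicate 6 therefore lay just above HFD replicate 2, and the diet groups overlapped. The lipid-associated mean was 1.96 higher in HFD than in CD and the resident-type mean 1.33 higher, which left a difference of 0.63 in the balance, against a standard deviation of 0.55 among the CD and 0.37 among the HFD libraries (n = 2 each). The HFD mean of the balance was 0.025, against -0.22 in CD replicate 6 and -0.996 in CD replicate 8, so the size of the difference rested on the CD library used. With 0.1 added in place of 1, the difference in the balance was 1.15. The diet groups then no longer overlapped, at -0.314 and -1.95 in CD and -0.306 and 0.342 in HFD. The mean of the general leukocyte and macrophage identity genes (13 genes) was 1.61 higher. These are descriptions, and genes are not replicates.

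Summed FPKM, to which nothing is added, put the diet libraries in another order. The lipid-associated sum divided by the resident-type sum came to 0.0787 and 0.0819 at 22 °C, 0.113 and 0.120 at 4 °C, 1.07 and 0.348 in CD and 1.14 and 1.67 in HFD. Lipid-associated RNA equalled or exceeded resident-type RNA only in the 2 HFD libraries and CD replicate 6 of the 8 libraries measured. Between 22 °C and 4 °C the summed ratio was higher in both cold libraries, whereas the balance of log values was lower on average by 0.36. The sign thus differed between a sum and a mean of logs. Gpnmb was the largest part of the lipid-associated sum in these libraries. At 22 °C it made up 0.835 of 1.21 FPKM (replicate 4) and 0.359 of 0.835 (replicate 7). At 4 °C it made up 2.44 of 2.82 (replicate 2) and 1.32 of 1.64 (replicate 11). The log difference was -0.39 with 0.1 added in place of 1, and smaller after quantile normalization (-0.12) and after rescaling (-0.09). The resident-type sum behind these ratios was 15.4 and 10.2 FPKM at 22 °C, 24.9 and 13.6 at 4 °C, 9.12 and 6.05 in CD and 27.9 and 25.9 in HFD.

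**Figure D4:**
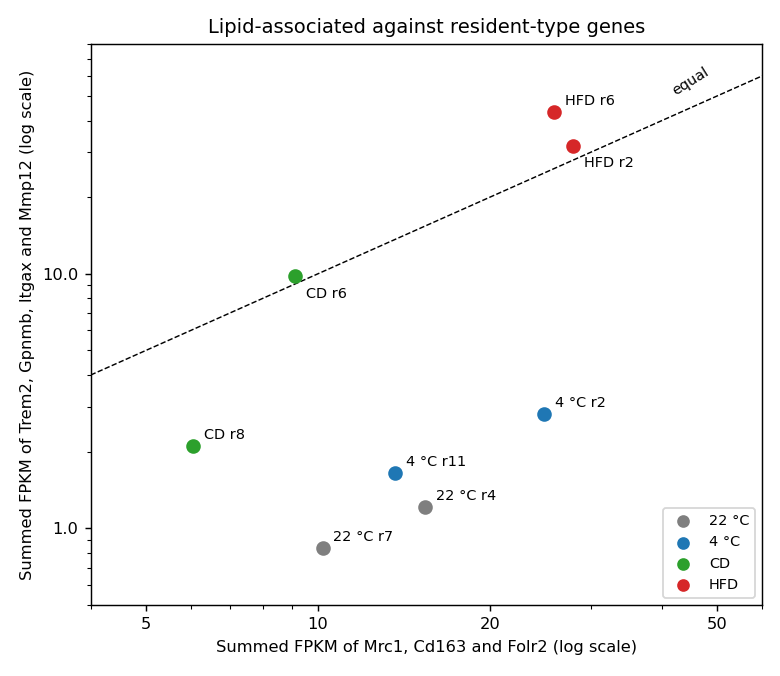
Summed FPKM of the 4 lipid-associated genes against summed FPKM of the 3 resident-type genes, both on log scales, 1 point per library, with a dashed line of equal sums. Both HFD libraries and CD replicate 6 lie above the line, and the 4 libraries of the cold experiment and CD replicate 8 lie below it.

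Among the further lipid-handling genes, With 1 added to FPKM, Lgals3 had the largest fitted difference between the diets among the 38 tested, and it was also one of the most uneven. Lgals3, which encodes galectin-3, a sugar-binding protein of phagocytes, was at 5.41 and 3.76 FPKM at 22 °C, at 11.2 and 4.91 at 4 °C, at 90.4 and 4.10 in CD and at 109 and 206 in HFD. CD replicate 6 stood close to HFD replicate 2 and far above CD replicate 8. The difference was 2.81 with an SE of 1.19 (limma adjusted p = 0.344). It was 0.72 without CD replicate 8, below the 1.74 of Cd68 in that fit, and 4.89 without CD replicate 6, so its rank rested on CD replicate 8. With 0.1 added in place of 1, Lgals3 (2.94) came below Mmp12 (3.33) and Trem2 (3.24). Spp1, the secreted phosphoprotein osteopontin, was at 0.0764 and 0.0406 FPKM at 22 °C, at 1.21 and 0.381 at 4 °C, at 7.51 and 0.762 in CD and at 7.64 and 17.4 in HFD, with a diet difference of 1.70 (SE 0.72, limma adjusted p = 0.344). For Spp1 this was 0.57 without CD replicate 8 and 2.84 without CD replicate 6. Atp6v0d2, a subunit of the vacuolar proton pump found in osteoclasts and giant cells, had values under 0.2 FPKM in the cold experiment and in CD replicate 8, 0.989 in CD replicate 6, and 3.22 and 4.23 in HFD. It was among the 3 genes, with Trem2 and Gpnmb, that passed when all 8 libraries shared 1 fit, where 0.428% of all genes did.

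General leukocyte and myeloid signalling genes were higher in both HFD than in both CD libraries for 6 of 6, against 39.9% of all genes, with fitted differences of 1.26 to 2.24. Tyrobp, the adaptor DAP12 through which TREM2 signals, was at 8.17 and 7.63 FPKM at 22 °C, at 10.6 and 5.58 at 4 °C, at 19.8 and 4.13 in CD and at 39.1 and 58.1 in HFD. Its diet difference was 2.24 (SE 0.66, limma adjusted p = 0.210), and it was 1.23 without CD replicate 8 and 3.25 without CD replicate 6. Fcer1g, the Fc receptor gamma chain and a second adaptor of this kind, was at 7.02 and 2.39 FPKM in CD and at 16.2 and 17.6 in HFD. Spi1, which encodes PU.1, was at 2.18 and 0.550 FPKM in CD and at 5.09 and 5.30 in HFD. Laptm5, a lysosomal membrane protein of blood cells, was the signalling gene whose CD libraries were closest, at 1.44 and 1.68 FPKM, against 7.36 and 4.38 in HFD.

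The macrophage identity genes were at least 2-fold higher on the fitted scale for 7 of 7 (3.46% of all genes), and both HFD values exceeded both CD values for 6 of 7 (39.9% of all genes). Cd68, a lysosomal glycoprotein used to stain macrophages, was at 2.97 and 2.11 FPKM at 22 °C, at 3.92 and 2.49 at 4 °C, at 6.79 and 1.89 in CD and at 29.6 and 21.1 in HFD. The difference of Cd68 was 2.46 (SE 0.51, limma adjusted p = 0.151). Adgre1, which encodes the F4/80 antigen of mouse macrophages, was at 4.32 and 1.46 FPKM in CD and at 11.8 and 11.9 in HFD. The exception was Mpeg1, the pore-forming perforin-2, at 6.83 and 1.24 FPKM in CD and 5.72 and 16.9 in HFD, where CD replicate 6 exceeded HFD replicate 2. Csf1r, the receptor for CSF1, had the closest CD libraries, at 2.74 and 2.97 FPKM, and was at 10.9 and 7.70 in HFD. At 4 °C replicate 2 Csf1r reached 7.99 FPKM, above HFD replicate 6.

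Complement C1q, whose 3 chains macrophages assemble into the first component of the classical pathway, was uniform. The fitted diet differences were 1.99 for C1qa, 2.11 for C1qb and 1.99 for C1qc, with limma adjusted p-values of 0.151 to 0.161. C1qa was at 19.95 and 14.3 FPKM at 22 °C, at 28.7 and 16.5 at 4 °C, at 14.9 and 7.33 in CD and at 51.4 and 38.5 in HFD. Of the Fc receptors, Fcgr1 was at 1.02 and 0.172 FPKM in CD and at 2.29 and 3.02 in HFD, and Fcgr3 at 5.003 and 2.70 in CD and at 12.3 and 14.7 in HFD. The scavenger receptor Msr1, which takes up modified lipoproteins, was at 3.39 and 0.553 FPKM in CD and at 6.55 and 12.2 in HFD. For the other receptors the groups lay closer, with fitted differences of 0.55 for Cd14, 0.48 for Clec7a and 0.70 for Clec4n. Without CD replicate 8 these were 0.32, 0.06 and -0.03, so that the sign of Clec4n turned.

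Lysosomal enzymes split in the same manner. Ctss, the protease cathepsin S that processes antigen, was at 19.2 and 4.28 FPKM in CD and at 34.7 and 53.6 in HFD. Lyz2 had a diet difference of 1.53 (SE 0.64) and Lyz1 one of 0.45 (SE 0.22), and without CD replicate 8 these were 0.74 and 0.29. After median centring they were 1.17 and 0.10. Lyz1 and Lyz2 are near-identical copies beside each other on chromosome 10, so how reads were shared between them is uncertain. Of the chemokine receptors, Ccr2, which brings monocytes into tissue, was at 4.35 and 0.814 FPKM in CD and at 3.76 and 9.60 in HFD, so that the groups overlapped.

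Retnla, which encodes a secreted protein of alternatively activated macrophages, was the only one of 38 tested genes with a negative diet difference. It was at 24.7 and 18.6 FPKM at 22 °C, at 13.7 and 11.9 at 4 °C, at 3.74 and 5.69 in CD and at 3.88 and 4.56 in HFD. The HFD values lay inside the CD range (difference -0.11, SE 0.32, limma adjusted p = 0.904), and without CD replicate 8 the difference was 0.14. All 4 libraries of the younger mice were above all 4 of the older mice.

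Cold was compared with 22 °C to ask which transcripts accompany activation of BAT. Of 37 myeloid genes tested, 23 differences were positive and 14 negative, with a median of 0.19 against 0.07 over all genes. Both 4 °C libraries were above both 22 °C libraries for 5 genes, where 37.9% of all genes were, and below for 5, where 20.6% were. The 5 higher ones were Cd163, Gpnmb, Spp1, Atp6v0d2 and Itgam, and the 5 lower ones Aif1, Retnla, Clec7a, Cx3cr1 and Itgax. Spp1 and Atp6v0d2 reached the filter's 0.1 FPKM only at 4 °C, and Cx3cr1 only at 22 °C. These genes were therefore tested only through the group where they were higher, and their directions carry no weight. After median centring, 3 genes were higher (19.8% of all genes) and 12 lower (47.7%) in both 4 °C libraries, and the median difference was -0.07, against -0.19 over all genes. After rescaling, 3 were higher (13.2% of all genes) and 11 lower (26.6%), and after quantile normalization 5 were higher (26%) and 9 lower (32.5%). At least 2-fold higher on the fitted scale was 1 of 37, Cd163, against 5.44% of all genes. This count was 2 of 35 without 22 °C replicate 4 (5.23% of all genes) and 4 of 35 without 4 °C replicate 11 (9.09%). With 0.1 added in place of 1, 3 of 37 were at least 2-fold higher (Spp1, Cd163 and Gpnmb, against 9.78% of all genes) and 1 lower (Aif1, against 3.49%). None of the 37 passed the threshold of limma (0 calls, against 1.44% of all genes), and 7 had an unadjusted p under 0.05, where 24.5% of all genes did.

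Cd163, as given above, had the largest cold difference of the 37 with 1 added to FPKM, 1.30 (SE 0.29, limma adjusted p = 0.0779), with every 4 °C value above every value at 22 °C. Cd163 was called when the libraries were centred on their medians (4.34% of all genes) and when all 8 libraries shared a fit with library type (4.97%). Without 22 °C replicate 4, 2 genes were called, Cd163 and Gpnmb, against 3.05% of all genes. Gpnmb had a cold difference of 0.84 (SE 0.25, limma adjusted p = 0.130), and Spp1 one of 0.72 (SE 0.22, limma adjusted p = 0.131). With 0.1 added, Spp1 (2.34) came above Cd163 (1.64). Spp1 at 22 °C rested on about 12.8 and 6.6 fragments and was below the filter there. It was tested only through the 4 °C libraries, so its cold direction and adjusted p decide nothing. Trem2 (0.01, and -0.25 after median centring) and Itgax (-0.09, -0.35 after median centring and -0.40 with 0.1 added) had smaller cold differences than these, and the resident-type genes Mrc1 (0.50, SE 0.34) and Folr2 (-0.17, SE 0.35) had overlapping groups. For Mrc1 the difference was 0.058 without 4 °C replicate 2 and 0.94 without 4 °C replicate 11.

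Among the 37 tested, Aif1 had the lowest adjusted p in the cold comparison. Aif1, which encodes IBA1, a calcium-binding protein of macrophages and microglia, was at 1.43 and 1.19 FPKM at 22 °C, at 0.400 and 0.473 at 4 °C, at 1.43 and 0.392 in CD and at 3.62 and 2.56 in HFD. The cold difference was -0.68 (SE 0.12, limma adjusted p = 0.0548), and the diet difference was 1.14 (SE 0.33, limma adjusted p = 0.1995), or 0.74 without CD replicate 8. Retnla at 4 °C differed from 22 °C by -0.71 (SE 0.23, limma adjusted p = 0.144). For most other genes the sign rested on which libraries were set against each other. Among satellite-high libraries 32 of 37 cold differences were negative (median -0.20, against 0.03 over all genes). Among satellite-low libraries 30 of 37 were positive (median 0.53, against 0.13 over all genes), with no test possible within a type.

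Other genes of the same pathways were read from lists, beside the same shares of all genes (39.9% higher in both HFD libraries, 3.46% at least 2-fold higher). Of 15 tested myeloid adaptor and phagocyte signalling genes, 14 were higher in both HFD than in both CD libraries and 7 at least 2-fold, with a median difference of 0.99. Itgb2, the beta chain shared by the integrins of Itgam and Itgax, was at 2.97 and 0.756 FPKM in CD and at 7.75 and 8.49 in HFD. Of 17 tested resident and perivascular macrophage genes, 15 were higher in both HFD libraries and 9 at least 2-fold (median 1.02), among them Lyve1, a hyaluronan receptor, at 1.71 and 1.13 FPKM in CD and 5.65 and 4.31 in HFD. The resident marker Timd4 overlapped between the diets, at 0.154 and 0.0788 FPKM in CD and 0.290 and 0.0926 in HFD. It was at 0.524 and 0.336 FPKM at 22 °C and 0.448 and 0.250 at 4 °C. By limma, 0 genes of both lists passed the threshold, 14 and 15 had an unadjusted p under 0.05 (14.4% of all genes), and 7 and 9 were called with library type as a covariate, where 4.25% of all genes were.

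For the lysosome and lipid genes of lipid-laden macrophages, 11 of 20 tested were higher in both HFD libraries, against 39.9% of all genes, and 4 at least 2-fold, against 3.46%, with a median of 0.57. The 2 that were lower in both were Lpl, a lipase, at 433 and 433 FPKM in CD and 416 and 357 in HFD, and Ocstamp, a protein of osteoclast fusion, at 0.221 and 0.221 and at 0.209 and 0.176. Slc37a2, a sugar phosphate transporter of macrophages, was at 1.58 and 0.387 FPKM in CD and at 5.38 and 5.76 in HFD, and Capg, an actin-capping protein, at 16.98 and 2.39 and at 28.2 and 43.9. Adipocytes also make several proteins of this list, among them those of Cd36, Lpl and Plin2, which stood at 159 FPKM or more in every library. Of 11 genes of the CSF axis, 9 were higher in both HFD libraries (39.9% of all genes) and 2 at least 2-fold (3.46%), with a median of 0.62. After median centring, 14 myeloid adaptor, 14 resident, 8 lysosome and lipid and 6 CSF axis genes were higher in both HFD libraries, with medians of 0.63, 0.67, 0.22 and 0.27. Of all 17543 genes, 1988 were higher in both HFD libraries after this centring, and their median over all was -0.18. Csf1, the ligand of Csf1r, was at 2.55 and 1.48 FPKM in CD and at 5.30 and 5.501 in HFD, and its second ligand Il34 at 1.87 and 0.692 and at 2.56 and 3.74. Of these lysosome and lipid genes and CSF axis genes, 0 passed limma's threshold, 8 and 9 had an unadjusted p under 0.05 (14.4% of all genes), and 4 and 2 were called with library type as a covariate (4.25% of all genes). In the cold, the medians of the 4 lists lay between -0.05 and 0.36, and 0 of their genes passed limma's threshold. With library type as a covariate, 2 lysosome and lipid, 1 resident, 1 CSF axis and 0 myeloid adaptor genes were called, where 4.92% of all genes were. Without it, 1 myeloid adaptor, 3 resident, 4 lysosome and lipid and 2 CSF axis genes had an unadjusted p under 0.05, where 24.5% of all genes did.

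Markers of other cells were read in the same libraries. Skeletal muscle markers summed to 597 and 142 FPKM at 22 °C, 4405 and 2015 at 4 °C, 618 and 1569 in CD and 210 and 40.2 in HFD, and all 11 of the 12 listed genes found in the table were more than 2-fold lower on the fitted scale in HFD (0.935% of all genes) and more than 2-fold higher at 4 °C (5.44%). Lymphoid markers were low throughout, at 1.41 to 2.88 FPKM summed over 12 genes. Endothelial markers summed to 125 and 106 FPKM in CD and to 171 and 193 in HFD, and fibroblast markers to 87.9 and 96.7 and to 216 and 197. Of these lists 0 genes were called by limma in either comparison. In the diet comparison 10 muscle, 3 fibroblast, 0 endothelial and 1 lymphoid marker had an unadjusted p under 0.05 (14.4% of all genes), and 10, 3, 0 and 0 were called with library type as a covariate (4.25%). For cold these counts were 11, 1, 5 and 2 (24.5% of all genes), and 6, 0, 0 and 0 with library type as a covariate (4.92%). White adipocyte markers (Lep, Retn and Agt) summed to 98.4 and 55.2 FPKM at 22 °C, 242 and 120 at 4 °C, 15.4 and 8.50 in CD and 74.8 and 102 in HFD. The members did not move together. Most of the sum in the cold experiment was Retn, at 87.8 and 50.2 FPKM at 22 °C and 231 and 112 at 4 °C. Agt was also higher at 4 °C. Lep, the hormone leptin, was lower in the cold, at 7.39 and 3.72 FPKM at 22 °C and 0.769 and 0.175 at 4 °C. Most of the HFD sum was Lep, which was called higher in HFD, at 2.93 and 0.307 FPKM in CD and 61.7 and 83.5 in HFD (difference 5.005, SE 0.55, limma adjusted p = 0.0425). Retn was higher in both HFD libraries, and Agt was not (difference -0.03). Erythroid markers summed to 156 and 99.7 FPKM in CD and to 195 and 393 in HFD. The part of these cells in the myeloid differences was not tested.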

How the data were processed

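RNA of whole BAT was depleted of rRNA by the authors, made into directional libraries and sequenced as paired ends. The authors mapped reads with Tophat2 to GRCm38 and obtained gene values with Cufflinks (2.2.1 in the submitters' processing notes). The deposited table holds FPKM, 1 value per gene and library, with no pooling. Directional libraries do not show that counting used the strand.

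Tests used limma 3.58.1 (R 4.3.3, trended eBayes, two-sided) on log2(FPKM + 1), on the 4 libraries of a comparison, with Benjamini-Hochberg adjustment over all genes. Genes needed 0.1 FPKM in at least 2 libraries. X, Y and mitochondrial genes were left out because 3 libraries (both 22 °C libraries and CD replicate 6) list X genes at 0. No member lies there. The same 3 libraries list at most 1 mitochondrial gene above 0, against 15 in each other library. This listing coincides with 22 °C against 4 °C, so a cold difference cannot be told apart from whatever caused it. Among the diet libraries only CD replicate 6 has it. A gene was called at adjusted p under 0.05 and a log2 difference of at least 1, and adding 1 understates folds of low genes. "Higher in both" means that both values of a group exceed both of the other. The procedure was tested on simulated data. The planned fallback for FPKM applied, since counts were not used here.

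The 39 members and all lists were chosen with earlier results of these data known. Named with all values were the 4 lipid-associated and 3 resident-type genes, every called member, and the 5 members with the largest absolute difference in each comparison. Lists not described in the report or the closing section are not reported. Depth was read from low FPKM of single-exon genes: 97.5% to 98.6% of such values were whole multiples of 1 fragment within 0.1, so 1 fragment on 2000 bases is 0.00437 to 0.00605 FPKM. Fragments are not independent molecules, and this covers counting error only. With 2 mice per group, p-values measure only the spread between these samples. Python 3.11.15 and pandas 2.3.3 were used for summaries. Alternatives were other filters, pseudocounts, scalings, covariates, a shared fit and leaving out each library.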

Additional observations from a re-analysis of the deposited data

How the results depend on the processing

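With 2 libraries per group, calls over all genes moved with most settings. In the cold comparison 252 genes were called, against 0 without a filter, 529 with a filter of 1 FPKM, 474 with a pseudocount of 0.1, 491 with quantile normalization, 758 with median centring, 533 with rescaling (mitochondrial, rRNA, X and Y genes and Ucp1 left out of the scaling sum), 920 with X, Y and mitochondrial genes kept, 859 with library type as a covariate, 439 with all 8 libraries in 1 fit, 869 with both, and 1 (without 4 °C replicate 2) to 767 (without 22 °C replicate 7) with 1 library left out. In the diet comparison 12 were called, against 0 without a filter, after quantile normalization, after rescaling and with X, Y and mitochondrial genes kept, 24 with a filter of 1 FPKM, 45 after median centring, 745 with library type, 75 with all 8 libraries, 439 with both, and 98 to 726 with 1 library left out. Of the 39 genes, 1 was called in the cold after median centring and with all 8 libraries and library type, and 0 to 2 with 1 library left out. In the diet comparison 1 was called after median centring (Trem2), 31 with library type, 3 with all 8 libraries, 24 with both, and 4 to 31 with 1 library left out. In the cold comparison 5 of the genes were higher and 5 lower in both libraries, against 3 and 12 after median centring, 3 and 11 after rescaling and 5 and 9 after quantile normalization, where their median of 0.19 became -0.07, -0.09 and -0.01. With 1 library left out, the median lay between -0.10 (without 4 °C replicate 2) and 0.49 (without 4 °C replicate 11). The diet difference in the balance of lipid-associated and resident-type genes was 1.15 with a pseudocount of 0.1. Among named genes, under another scaling or with 1 library left out, the cold difference reversed for Cd68 (-0.020 after median centring, -0.091 after rescaling, -0.010 to 0.49 with 1 library left out), for Trem2 (-0.25, -0.062, and -0.024 to 0.047), for Tyrobp (-0.43 to 0.39) and for Folr2 (-0.59 to 0.25), and the diet difference for Retnla (-0.36 to 0.14). In satellite-high libraries alone the cold difference was also negative for Lgals3 (-0.12) and Mrc1 (-0.12). The cause was not tested, apart from fewer libraries where one was left out. Median centring lowered the median diet difference of the 38 genes from 1.60 to 1.24. It left 28 of them higher and 2 lower in both HFD libraries, where 1988 and 4982 of all 17543 genes were. The median over all genes moved from 0.07 to -0.19 (cold comparison) and from 0.18 to -0.18 (diet comparison). No paired analysis was possible because the compared groups share at most 1 replicate number.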

Other observations

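Of 6 tested mast cell markers, outside the macrophage lists, 5 were higher in both HFD than in both CD libraries, where 39.9% of all genes were, and 3 at least 2-fold, where 3.46% of all genes were, and 1 was lower. By limma 0 passed the threshold, 6 had an unadjusted p under 0.05, where 14.4% of all genes did, and 3 were called with library type as a covariate, where 4.25% of all genes were. Cma1, a chymase of mast cell granules, was at 2.59 and 1.32 FPKM at 22 °C, at 2.78 and 1.30 at 4 °C, at 0.708 and 0.521 in CD and at 2.58 and 3.42 in HFD. The 2 CD values were the lowest of the 8 libraries. The lower marker was Kit, the stem cell factor receptor, at 0.388 and 0.421 FPKM in HFD against 0.705 and 1.13 in CD.

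Monocyte markers were uneven. Their sum over 5 genes was 7.93 and 1.30 FPKM in CD and 5.97 and 32.1 in HFD, and Chil3, a chitinase-like protein, accounted for 16.7 FPKM in HFD replicate 6 and 2.09 in HFD replicate 2. S100a8, an alarmin of neutrophils and monocytes, was at 1.85 and 1.17 FPKM in CD and at 2.66 and 7.03 in HFD, while Ly6g was at or below 0.0605 FPKM in all 8 libraries. Eosinophil markers summed to 0.399 FPKM or less in every library.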
